A study of Mus musculus with 12 samples.

Results

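The natriuretic peptide cGMP system that holds the oocyte in meiotic arrest was examined here as 9 genes, chosen by symbol: Nppc, Npr1, Npr2, Npr3, Pde5a, Gja1, Impdh1, Impdh2 and Prkg2. All 9 were found by Ensembl identifier in both deposited tables, among 29101 genes listed for mural granulosa cells (MGCs, the granulosa cells along the follicle wall), 33137 listed for cumulus cells (those around the oocyte) and 26382 in both. RNA was sequenced from WT (control) mice and from Sphk1/2gc-/- mice, which lack Sphk1 and delete floxed Sphk2 with Fshr-Cre, with 3 libraries per cell type and genotype and 12 in all. The study's methods give the full genotype as Sphk1-/-; Sphk2 fl/fl; Fshr-Cre, so Sphk1 is absent from the whole animal and only the Sphk2 allele is restricted to cells with Fshr promoter activity. They list WT C57/BL6 mice as purchased, without saying that these were the controls sequenced. The sample titles say only Control and Sphk1/2 knockout. All groups were immature females primed with eCG and then given hCG, which acts as the luteinizing hormone (LH) signal, and cells were taken 2 h post-hCG. The labels do not say whether libraries came from separate animals, so p-values measure only the spread between these libraries, which may be technical.

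In preovulatory follicles, the peptide encoded by Nppc is made mainly by mural granulosa cells and binds the receptor guanylyl cyclase NPR2 on granulosa cells, known above all for its role in cumulus cells, which turns GTP into cGMP. The cGMP passes through gap junctions to the oocyte, where it blocks cAMP breakdown by PDE3A and so keeps meiosis arrested. LH signaling lowers cGMP in the follicle within hours, partly by inactivation of NPR2 and by cGMP hydrolysis through PDE5, and the oocyte then resumes meiosis.

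Nppc lies on chromosome 1 (86666291 to 86670571, minus strand, GRCm38). The stretch of its coding sequence that carries the active hormone is shown because Nppc is the ligand that starts the pathway. It is the last 22 of 126 codons, in exon 2 of 3, at chr1:86669667-86669732 on the minus strand in GENCODE M21, and the capitals mark its 2 cysteine codons, with 15 codons between them, which close the ring that natriuretic peptides share.
Nppc: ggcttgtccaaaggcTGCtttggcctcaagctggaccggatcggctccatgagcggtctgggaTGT

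The study's own qRT-PCR primers for Nppc and Npr2 are shown because they read the same 2 transcripts by another assay; each primer set spans an intron and gives a product of 121 bases on the M21 transcript. For Nppc, the forward primer runs over the stop codon in exon 2 (86669656 to 86669678) and the reverse primer lies in the 3' UTR in exon 3 (86666713 to 86666733). For Npr2 on chromosome 4, both are in coding sequence, in exon 10 (43643650 to 43643669) and exon 11 (43644146 to 43644169).
Nppc forward: ggtctgggatgttagtgcagcta
Nppc reverse: taaaagccacattgcgttgga
Npr2 forward: gctgacccggcaagttctgt
Npr2 reverse: acaatactcggtgacaatgcagat

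The values are FPKM, fragments scaled by exon length and library total, so levels can be set beside each other between genes. FPKM times exon length gave whole reads for 90.6% to 92.1% of the values above 0, and the totals were 16100365 to 19761604 reads per library. MGC Sphk1/2gc-/- library 3 stood apart, correlating at 0.912 to 0.939 with the rest of the MGC libraries, and cumulus WT library 3 listed 27541 genes above 0 against 18788 to 19289 in the other cumulus libraries. Sphk1 was at 0.460 to 1.89 FPKM in WT MGCs and 0.104 to 0.557 in Sphk1/2gc-/- MGCs. In cumulus cells Sphk1 was at 0.0699 to 0.0954 FPKM in WT and at 0.0778 to 0.557 in the libraries labelled Sphk1/2gc-/-, so it was not lower under that label. Sphk2 overlapped between genotypes in both cell types. These values count whole genes and do not isolate the deleted exons. The granulosa transcript Inha was at 1213 FPKM or more in every library. The summed level of 4 mural granulosa markers (Lhcgr, Cyp11a1, Star, Akr1c18) was 347 to 1680 FPKM in MGCs and 23.5 to 91.6 in cumulus cells. The 6 cumulus markers went against the label as a sum, at 1010 to 1160 FPKM in WT MGCs and 252 to 581 in WT cumulus cells, with Tnfaip6 at 747 to 938 and 122 to 282 FPKM. Of the 6, Has2 and Ptx3 were higher in cumulus cells of the same genotype, while Slc38a3 and Amh were at 13.9 FPKM or more in every MGC library and 3.23 or less in every cumulus library. Oocyte markers summed to 27.3 to 113 FPKM in MGCs and 1.29 to 5.59 in cumulus cells. In bulk samples, fewer cells of a type and less RNA per cell cannot be told apart.

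Nppc, the ligand, was present in every library and higher in MGCs. Its level was 48.2, 45.0 and 73.4 FPKM in WT MGCs, while Sphk1/2gc-/- MGCs had 58.6, 51.6 and 89.3 FPKM. It was 37.3, 13.99 and 26.5 FPKM in WT cumulus cells, against 19.1, 37.0 and 34.2 FPKM in those labelled Sphk1/2gc-/-. The genotypes overlapped in both cell types, and every MGC library lay above every cumulus library. The genotype difference on the log2(FPKM + 1) scale was 0.25 in MGCs (95% interval −0.38 to 0.88, limma adjusted p = 0.821) and 0.26 in cumulus cells (−0.58 to 1.10, adjusted p = 0.641).

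**Figure D1:**
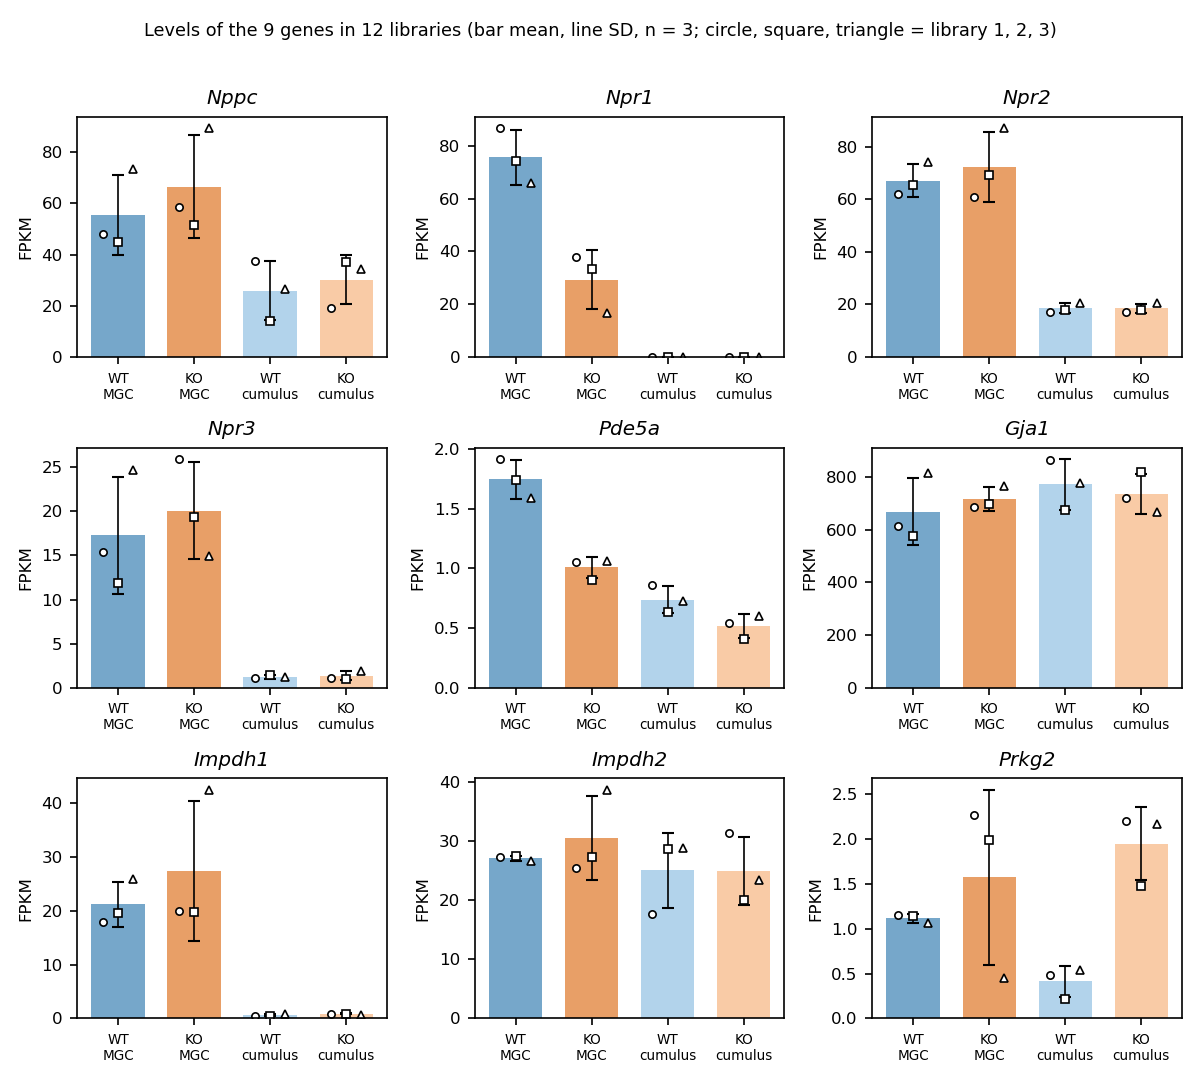
FPKM of the 9 genes in each library, with 1 panel per gene and a vertical axis that starts at 0. Bars are group means, lines are SD (n = 3 libraries), and circles, squares and triangles are libraries 1, 2 and 3. Npr1, Npr3 and Impdh1 stood high in MGCs and near 0 in cumulus cells, and Gja1 was between 575 and 865 FPKM throughout.

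Npr2, the guanylyl cyclase receptor for the Nppc product (chromosome 4, 43631935 to 43651244, plus strand), had nearly equal levels between genotypes. It was at 61.9, 65.4 and 74.2 FPKM in WT MGCs, while Sphk1/2gc-/- MGCs had 60.9, 69.2 and 87.1 FPKM. In cumulus cells it was at 17.1, 17.97 and 20.7 FPKM in WT, against 17.0, 17.97 and 20.5 FPKM in those labelled Sphk1/2gc-/-. The ranges overlapped between genotypes, and the lowest MGC library was above the highest cumulus library. The genotype difference was 0.10 on the log2(FPKM + 1) scale in MGCs (95% interval −0.29 to 0.48) and −0.01 in cumulus cells (−0.35 to 0.34), so a 2-fold change in either direction lay outside both intervals.

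Npr1, the guanylyl cyclase receptor for atrial and B-type natriuretic peptides, varied most. This gene is on chromosome 3 (90450591 to 90465866, minus strand), and 11.7% of its exon bases overlap Gm16048 on the other strand. Since the library kit named in the labels does not mark strand in its standard form, reads of the 2 genes cannot be told apart there. Its level was 86.7, 74.3 and 66.0 FPKM in WT MGCs, while Sphk1/2gc-/- MGCs had 37.8, 33.3 and 16.8 FPKM. The lowest WT library was above the highest Sphk1/2gc-/- library, and the means were 75.7 ± 10.4 and 29.3 ± 11.1 FPKM (SD, n = 3), a ratio of 2.58. The difference on the log2(FPKM + 1) scale was −1.41 (SE 0.299), but over the 15279 genes tested the limma adjusted p was 0.225. Without Sphk1/2gc-/- library 3 the difference was −1.06 with an adjusted p of 0.0309, and over all libraries left out in turn the adjusted p ranged from 0.0309 to 0.804. In cumulus cells Npr1 had 0, 1 and 7 reads in WT and 1, 0 and 4 in the libraries labelled Sphk1/2gc-/-, where 3 reads is the limit that a count of 0 allows, and it was not tested between genotypes there.

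The promoter of Npr1 is shown because Npr1 had the largest differences of the 9 genes both between cell types and between genotypes in MGCs. The 250 bases before its start (RefSeq, GRCm38.p6, chr3:90465867-90466116, minus strand) are 70.4% G or C, more than 91.2% of the 32851 promoters listed. The capitals mark 2 adjoining GC boxes (GGGCGG on either strand), a motif found in 32.7% of all these promoters.
Npr1 promoter: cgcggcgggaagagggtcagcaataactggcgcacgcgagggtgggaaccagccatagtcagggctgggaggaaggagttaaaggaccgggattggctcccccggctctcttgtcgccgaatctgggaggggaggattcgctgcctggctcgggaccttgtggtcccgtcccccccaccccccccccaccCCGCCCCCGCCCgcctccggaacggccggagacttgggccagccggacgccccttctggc

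Promoters were listed for 8 of the 9 genes, the exception being Prkg2. In the same 250 bases, the cAMP response element TGACGTCA (1.55% of all promoters) was in none of them, and the AP-1 letters TGACTCA or their reverse complement (4.46% of all promoters) were in Gja1 alone. GC content there ranged from 38.8% for Npr3 to 70.4% for Npr1. The starts are those of RefSeq, and for Pde5a and Impdh2 211 and 150 of the 250 bases lie in UTR sequence of GENCODE M21. The motifs are letters in a window and not evidence of binding.

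Npr3, the receptor that binds natriuretic peptides and removes them without making cGMP (chromosome 15, 11839896 to 11907287, minus strand), was at 15.4, 11.9 and 24.7 FPKM in WT MGCs, while Sphk1/2gc-/- MGCs had 26.0, 19.4 and 15.0 FPKM. In cumulus cells its level was 1.07, 1.49 and 1.19 FPKM in WT, against 1.07, 1.02 and 1.94 FPKM in those labelled Sphk1/2gc-/-. The genotypes overlapped in each cell type, and the lowest MGC library was at 11.9 FPKM against 1.94 for the highest cumulus library. The exon length in M21 did not give whole reads for Npr3, so its FPKM rests on a gene model other than the one listed here. The genotype difference was 0.23 on the log2(FPKM + 1) scale in MGCs and 0.04 in cumulus cells, with limma adjusted p of 0.861 and 0.895.

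**Figure D2:**
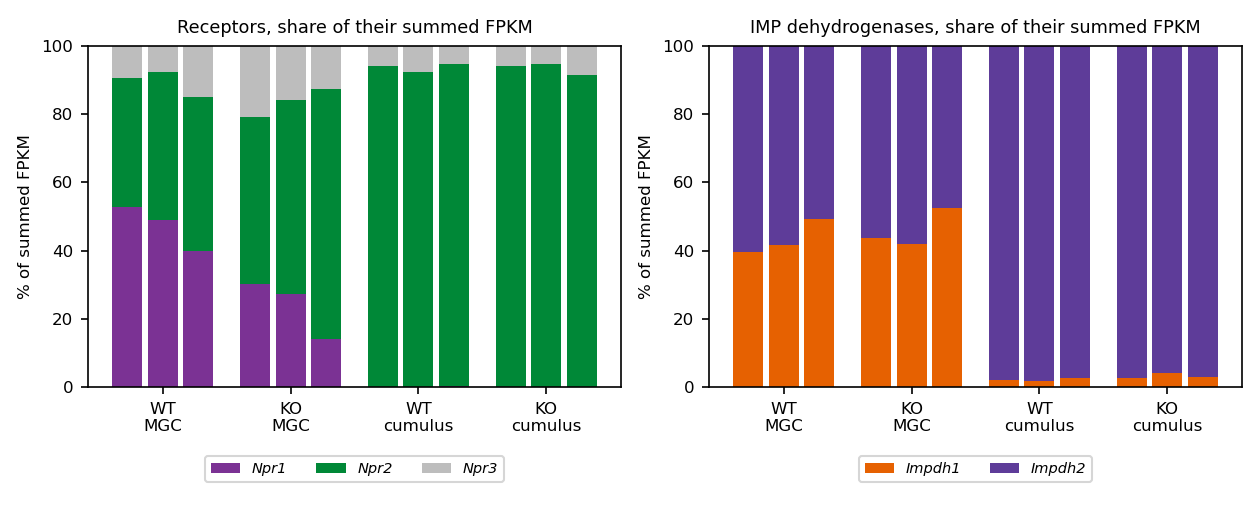
Each bar is 1 library, and its colored parts are the shares (%) of the summed FPKM of Npr1, Npr2 and Npr3 on the left and of Impdh1 and Impdh2 on the right. Npr2 made up 91.2% to 94.7% of the receptor sum in cumulus cells and 37.8% to 73.3% in MGCs, and Impdh1 fell from 39.7% to 52.3% of the dehydrogenase sum in MGCs to 1.74% to 4.25% in cumulus cells.

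The makeup of the receptors therefore differed by cell type. Npr2 made up 94.1%, 92.3% and 94.2% of the summed FPKM of the 3 receptors in WT cumulus libraries. In WT MGCs its share was 37.8%, 43.1% and 45.0%, and in Sphk1/2gc-/- MGCs it was 48.9%, 56.8% and 73.3%. The genotypes did not overlap in this share in MGCs, where Npr1 was lower and Npr2 was not. Npr1 is part of the sum, so the share restates the Npr1 difference, which did not pass its test (limma adjusted p = 0.225). The highest share, 73.3%, was that of library 3, which stood apart. The level of Npr2 per level of Npr3 was 2.35 to 5.82 in MGCs and 10.6 to 17.7 in cumulus cells.

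Pde5a, which encodes a phosphodiesterase that hydrolyzes cGMP (chromosome 3, 122728947 to 122859374, plus strand), was low throughout. It was at 1.92, 1.74 and 1.59 FPKM in WT MGCs, while Sphk1/2gc-/- MGCs had 1.06, 0.907 and 1.06 FPKM. In cumulus cells it was at 0.859, 0.634 and 0.724 FPKM in WT, against 0.540, 0.407 and 0.599 FPKM in those labelled Sphk1/2gc-/-. In both cell types every WT library lay above every library of the other genotype. On the log2(FPKM + 1) scale, which understates the change of low transcripts, the difference was −0.45 in MGCs (SE 0.149, limma adjusted p = 0.439) and −0.20 in cumulus cells (SE 0.134, adjusted p = 0.314), so neither passed the test. The ratio of the WT to the Sphk1/2gc-/- mean FPKM was 1.73 in MGCs and 1.43 in cumulus cells, and each value rests on 79 to 311 reads.

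Gja1, the connexin 43 gene that forms most gap junctions between granulosa cells (chromosome 10, 56377330 to 56402513, plus strand), was the most abundant of the 9. Its group means were 669 ± 128 FPKM in WT MGCs, 717 ± 44.3 in Sphk1/2gc-/- MGCs, 773 ± 96.1 in WT cumulus cells and 736 ± 76.8 in those labelled Sphk1/2gc-/- (SD, n = 3). All 4 ranges overlapped, and no neighbours in the order of the means differed beyond their spread. The genotype difference was 0.12 in MGCs (95% interval −0.32 to 0.55) and −0.07 in cumulus cells (−0.43 to 0.29) on the log2(FPKM + 1) scale.

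Impdh1 and Impdh2 encode IMP dehydrogenase, which catalyzes the rate-limiting step toward GTP, the substrate of guanylyl cyclases. Impdh1 (chromosome 6, 29200434 to 29216364, minus strand) was at 17.97, 19.6 and 26.0 FPKM in WT MGCs, while Sphk1/2gc-/- MGCs had 19.9, 19.8 and 42.5 FPKM. In cumulus cells it was at 0.396, 0.507 and 0.847 FPKM in WT, against 0.887, 0.891 and 0.697 FPKM in those labelled Sphk1/2gc-/-. The genotypes overlapped in both, and the highest value, in Sphk1/2gc-/- MGC library 3, was that of the library that stood apart. Impdh2 (chromosome 9, 108560286 to 108565584, plus strand) had means of 27.2 ± 0.427, 30.5 ± 7.15, 25.1 ± 6.40 and 24.98 ± 5.83 FPKM (SD, n = 3) in WT and Sphk1/2gc-/- MGCs and in WT cumulus cells and those labelled Sphk1/2gc-/-, in that order. Its 4 ranges overlapped, whereas Impdh1 differed between the cell types by a ratio of 36.3 in WT means.

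Prkg2, which encodes cGMP-dependent protein kinase II (chromosome 5, 98929773 to 99037351, minus strand), was the gene that rose in the cumulus libraries labelled Sphk1/2gc-/-. Its level there was 2.21, 1.48 and 2.17 FPKM, from 223, 157 and 223 reads. In WT cumulus cells it was 0.486, 0.218 and 0.541 FPKM, from 42, 21 and 51 reads. The lowest library labelled Sphk1/2gc-/- was above the highest WT library, and the ratio of means was 4.70. On the log2(FPKM + 1) scale the rise was 1.06 (SE 0.167, limma adjusted p = 0.00497). It passed the adjusted p without each library in turn (adjusted p from 0.00783 to 0.0241), and was 0.95 to 1.18 on the log2 scale, below the 2-fold limit without WT library 2 or without library 1 of those labelled Sphk1/2gc-/-. In MGCs Prkg2 was at 1.15, 1.14 and 1.06 FPKM in WT and at 2.27, 1.99 and 0.453 FPKM in Sphk1/2gc-/-, so that 2 of the 3 libraries lay above all WT libraries and library 3 lay below them. The difference in MGCs was 0.19 (SE 0.317, adjusted p = 0.896). Over libraries 1 and 2 of each genotype only it was 0.54 (adjusted p = 0.0447), where 782 of all 15433 genes passed as higher and 1704 as lower. That setting leaves out the Sphk1/2gc-/- library in which Prkg2 lay below WT, so it gives no separate evidence of a rise in MGCs.

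The start of the Prkg2 coding sequence is shown because this kinase is held at membranes through a fatty acid on its second residue. The first 10 of 762 codons lie in exon 2 of 19 (chr5:99024825-99024854, minus strand, GENCODE M21, GRCm38), and the capitals mark the glycine codon after the start codon. The annotation also holds Prkg2 transcripts of 4 and 5 exons that start within the gene, near 98943834, and lack this stretch, and the deposited whole-gene values do not tell which form was present.
Prkg2: atgGGAaatggttcagtgaagcccaagcat

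The genotypes were compared to ask whether the loss of Sphk1/2 in granulosa cells changed transcripts of this system at the time when meiosis resumes. Every gene whose mean reached 0.5 FPKM in either group was tested with limma on log2(FPKM + 1), and a gene passed if the adjusted p (Benjamini-Hochberg) did not exceed 0.05 and was called if it also changed 2-fold or more. In MGCs 0 of the 9 genes passed with limma, against 0.0393% of all 15279 genes (6 genes). Without Sphk1/2gc-/- library 3, 167 of all genes passed as higher and 111 as lower, and over libraries 1 and 2 of each genotype 782 and 1704 did. At an unadjusted p of 0.05 or less there were 2 of 9, Npr1 and Pde5a, against 9.20% of all genes. The same 2 genes did not overlap between genotypes, against 16.9% of all genes. The median difference of the 9 genes was 0.14 on the log2 scale, and that of all genes was −0.0034.

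In cumulus cells 1 of 8 genes tested passed, against 22.3% of 12205 genes, and it was called, against 8.04%. This was Prkg2, which encodes a cGMP-dependent protein kinase. Of the 8, 2 genes did not overlap between the genotypes, Prkg2 upward and Pde5a downward, against 42.3% of all genes. The other 6 genes tested had differences of −0.07 to 0.26 on the log2 scale, with adjusted p of 0.344 to 0.991. For these 6 the 95% intervals reached from −0.58 at the lowest to 1.10 at the highest, with Nppc the widest.

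**Figure D3:**
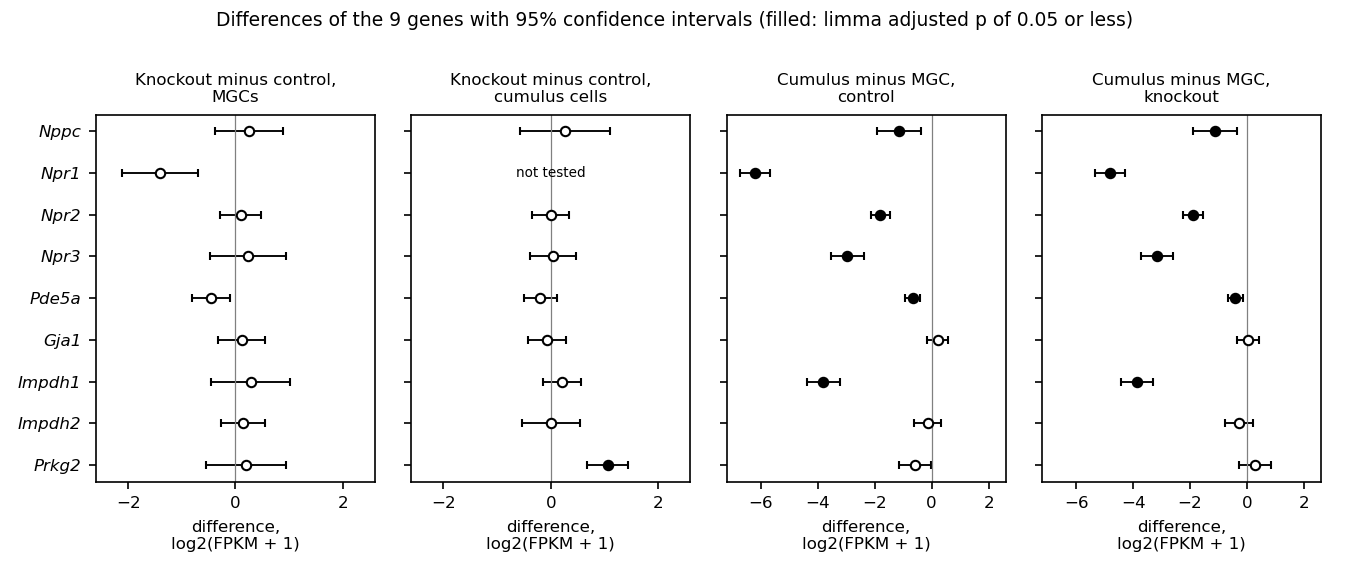
Differences of the 9 genes on the log2(FPKM + 1) scale (horizontal axes) in 4 comparisons, each a point with its 95% interval from limma, filled where the adjusted p was 0.05 or less. Prkg2 is the gene filled in the cumulus genotype comparison (1.06), no gene is filled in MGCs, and 6 genes are filled and lie below 0 in each comparison of cell types.

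Beside Npr1 and Pde5a, other transcripts also separated the genotypes in MGCs, where 16.9% of all genes tested did not overlap. The 4 mural granulosa markers summed to 1680, 1370 and 1610 FPKM in WT and 868, 768 and 347 in Sphk1/2gc-/- MGCs. Of these, Star and Cyp11a1 did not overlap between the genotypes, and Lhcgr (213 to 565 against 210 to 246 FPKM) and Akr1c18 (1.21 to 6.78 against 3.33 to 9.99 FPKM) did. The 8 endothelium markers (such as Pecam1, Cdh5 and Kdr) summed to 14.8, 13.9 and 18.1 FPKM in WT and 9.60, 10.7 and 9.09 in Sphk1/2gc-/- MGCs. Neither sum overlapped between the genotypes, and the defining endothelial gene Cdh5 was not at 0 but at 4.83 to 7.39 FPKM in the 6 libraries. Sums of 7 smooth muscle and pericyte markers (54.8 to 65.6 against 31.0 to 42.8 FPKM) and of 8 leukocyte markers (161 to 304 against 21 to 105 FPKM) were also apart, and those of 5 erythroid markers overlapped (262 to 404 against 30.6 to 291 FPKM). The smooth muscle and pericyte sum was largely Acta2 (49.3 to 54.7 against 27.6 to 37.8 FPKM). Cnn1 and Rgs5 were also apart, and Myh11, Tagln, Des and Cspg4 overlapped. The leukocyte sum was largely S100a8, S100a9 and Lyz2, while Adgre1 was at 0.969 to 2.49 FPKM in WT and at 4.25, 5.24 and 0.614 in Sphk1/2gc-/- MGCs. Sums for theca, stroma, oocyte and granulosa markers overlapped between the genotypes in MGCs. The part of these other cells in the levels of Npr1 and Pde5a was not tested.

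**Figure D4:**
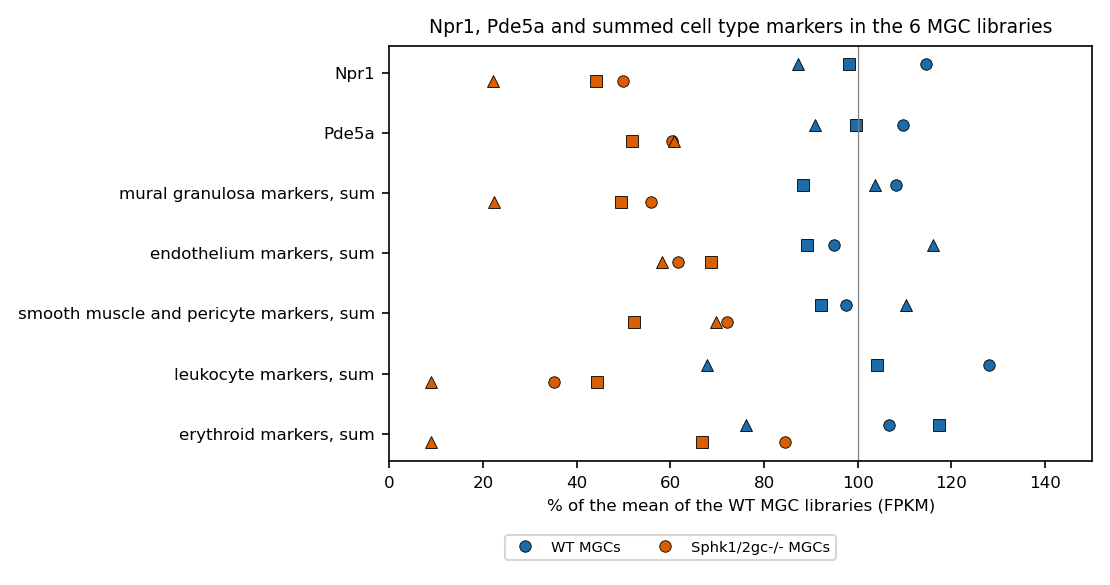
Levels of Npr1 and Pde5a and summed levels of 5 marker lists in the 6 MGC libraries, each as % of the mean of the 3 WT libraries (horizontal axis). Blue is WT, orange is Sphk1/2gc-/-, and circles, squares and triangles are libraries 1, 2 and 3. Npr1 (16.8 to 37.8 FPKM against 66.0 to 86.7) separated the genotypes. The sum of each list shown did too, apart from the erythroid markers.

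Markers are given in the same way for cumulus cells, where 42.3% of all genes tested did not overlap between the genotypes. The 6 cumulus markers summed to 347, 252 and 581 FPKM in WT, against 1020, 1000 and 1220 FPKM in those labelled Sphk1/2gc-/-. The 8 granulosa markers summed to 2650 to 3730 FPKM in WT and 2220 to 2340 in those labelled Sphk1/2gc-/-. Both sums separated the groups, in opposite directions, but not every member did so. In the cumulus list Ptx3, Tnfaip6 and Slc38a3 were higher without overlap, and Has2 and Amh overlapped. Aldoc was lower without overlap (3.16 to 4.43 FPKM in WT against 0.419 to 1.01). In the granulosa list Hsd17b1 was lower without overlap (1076 to 1198 FPKM in WT against 218 to 333), as were Foxl2, Fshr, Inhbb, Cyp19a1 and Nr5a2. Inha overlapped (1213 to 2114 against 1772 to 1966), as did Amh. Sums of some lists of other cells were low but also apart. The 8 endothelium markers summed to 1.15 to 1.86 FPKM in WT against 0.609 to 0.886. Much of this was Egfl7, at 0.811 to 0.870 FPKM in WT against 0.379 to 0.466. Kdr overlapped (0 to 0.0757 against 0.0577 to 0.0729 FPKM). Tek had only 2, 0 and 6 reads in WT and 0 in each library labelled Sphk1/2gc-/-. Of the 5 theca markers, 4 were listed for cumulus cells and summed to 10.2 to 27.3 FPKM against 5.27 to 9.00. This sum was largely Cyp17a1 (9.45 to 26.2 against 4.44 to 8.34 FPKM). Ptch1 overlapped (0.490 to 1.07 against 0.614 to 0.835 FPKM), and Gli1 and Tcf21 had 0 to 6 reads. The 10 oocyte markers summed to 2.43 to 5.59 FPKM against 1.29 to 1.95. The 4 erythroid markers listed there summed to 4.37 to 26.8 FPKM against 0.3 to 1.78. Sums for leukocyte, stroma and smooth muscle and pericyte markers overlapped. The relation of these lists to Prkg2 was not tested.

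The cell types were then compared within each genotype to locate the parts of the system. FPKM is scaled within a library and the M21 exon length gave whole reads in both tables or in neither for 99.4% of 14985 genes, but a common scale of the 2 tables is not stated, and cell type and table cannot be told apart. In WT mice 6 of the 9 genes passed, all lower in cumulus cells, against 78.6% of 15339 genes that passed in either direction and 53.7% that passed as lower. Of these, 5 were called, all lower, against 50.4% of all genes in either direction and 34.5% as lower. The libraries of the cell types did not overlap for 7 of the 9, against 83.3% of all genes. In Sphk1/2gc-/- mice the same 6 passed as lower, against 76.4% of 14983 genes in either direction and 53.2% as lower. Again 5 were called, all lower, against 47.8% in either direction and 33.3% as lower, and 6 of the 9 did not overlap, against 75.6%. The median of the 9 genes was −1.14 in WT and −1.13 in Sphk1/2gc-/-, where that of all genes was −0.58 in both.

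Npr1 was lower in cumulus cells, with a difference of −6.21 on the log2(FPKM + 1) scale in WT. By reads, 18128 in WT MGCs stood against 8 in WT cumulus cells, a ratio of read shares of 2330 (95% exact binomial interval 1180 to 5410, which covers counting error only). In Sphk1/2gc-/- mice 7212 reads stood against 5, a ratio of 1600 (687 to 4940). Both ratios rest on the few cumulus reads, and 7 of the 8 in WT came from library 3, the one with more genes above 0.

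Impdh1, Npr3 and Npr2 followed in the order of size. In WT the log2(FPKM + 1) difference was −3.80 for Impdh1 (SE 0.260, limma adjusted p = 7.83e-08), −2.97 for Npr3 (SE 0.264, adjusted p = 7.25e-07) and −1.80 for Npr2 (SE 0.154, adjusted p = 5.25e-07). In Sphk1/2gc-/- mice these differences were −3.87, −3.16 and −1.90. Ratios of the mean FPKM in MGCs to that in cumulus cells were 36.3, 13.9 and 3.61 in WT for these 3 genes. Nppc differed by −1.14 in WT (SE 0.355, adjusted p = 0.0111) and −1.13 in Sphk1/2gc-/- (adjusted p = 0.0119), a ratio of mean FPKM of 2.14 and 2.21. Its adjusted p rose above 0.05 without WT MGC library 3 or WT cumulus library 2 in the WT comparison (0.0516 and 0.0552), and without MGC library 3 or cumulus library 1 in the Sphk1/2gc-/- one (0.0506 and 0.0568). Pde5a differed by −0.66 and −0.41 on the log2 scale. Gja1, Impdh2 and Prkg2 did not pass in either genotype, and Prkg2 turned from −0.59 in WT (adjusted p = 0.0526) to 0.27 in Sphk1/2gc-/- (adjusted p = 0.346). Under other settings each of these genes passed, so this depends on the processing. The lowest limma adjusted p in WT and Sphk1/2gc-/- was 0.00514 and 0.00228 for Gja1. For Impdh2 it was 0.0118 and 0.0475, and for Prkg2 0.00021 and 0.00494.

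Across all genes the difference between the cell types also varied with GC content. The median difference between the cell types in WT was 0.26 in the 10% of genes with the lowest GC content of their exons and −1.37 in the 10% with the highest. Impdh1 (58.9% GC), Npr1 (57.4%) and Npr2 (55.0%) are among the richest, and their differences were 2.43, 5.09 and 0.68 below the median of genes in their own 10% bin of GC content. Within its bin, 0.0652% of genes lay lower than Npr1, 1.57% lower than Npr3 and 6.47% lower than Impdh1. For Npr2 and Nppc these shares were 30.8% and 28.5%. After a GC correction, added after the data were seen, Npr1, Npr3 and Impdh1 were still called in both genotypes, Npr2 still passed, and Nppc was at −0.62 in each with adjusted p of 0.152 and 0.155. Pde5a turned to 0.28 (adjusted p = 0.0333) in WT and 0.51 (adjusted p = 0.00133) in Sphk1/2gc-/- under a correction for GC and length, so its direction between the cell types depends on the scaling.

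**Figure D5:**
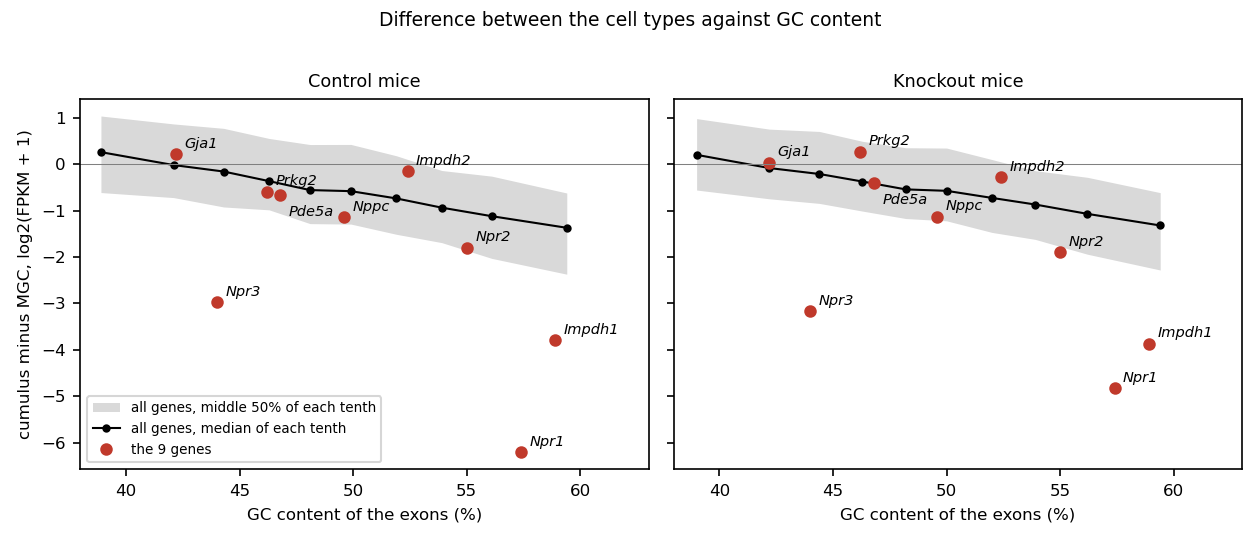
Cumulus minus MGC difference on the log2(FPKM + 1) scale against the GC content of the exons (%), in WT (left) and Sphk1/2gc-/- mice (right). Black points join the medians of all genes in 10% bins of GC content, grey covers the middle 50% of each bin, and red points are the 9 genes. The medians fall from 0.26 to −1.37 in WT and from 0.20 to −1.32 in Sphk1/2gc-/-, and Npr1, Npr3 and Impdh1 lie below the grey band in both.

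Whether the genotype effect differed between the cell types was tested in 1 model of the 12 libraries, and 1 of the 9 genes passed, against 3.93% of 15869 genes. This was Npr1, at 1.39 on the log2(FPKM + 1) scale (SE 0.340, limma adjusted p = 0.0450). With 8 and 5 reads in cumulus cells, the pseudocount holds the cumulus effect near 0, so this value restates the MGC difference of −1.41, which did not pass its own test, and it gives no comparison of the effect on Npr1 between the cell types. The difference was 1.39 and the adjusted p 0.0568 with the replicate number as a block, and the adjusted p ranged from 0.0127 to 0.127 when each library was left out, so this call does not hold across the libraries. The difference for Prkg2 was 0.86 (SE 0.365, adjusted p = 0.193), so its rise in cumulus cells was not shown to differ from its values in MGCs.

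Other genes of the pathway were read from 7 lists of general knowledge. In MGCs 0 of the 81 list genes tested passed with limma, against 0.0393% of all genes, and without adjustment the p was 0.05 or less for 9, against 9.20%. In cumulus cells 15 of 67 passed, near the 22.3% of all genes. Among 3 genes of cGMP synthesis tested there, 0 passed with limma (median −0.25, all genes −0.06). The subunits of soluble guanylyl cyclase, which answers to nitric oxide, were low in every library, with Gucy1a1 at 0.879 to 2.41 FPKM and Gucy1b1 at 1.06 to 1.89 FPKM. Furin, a protease that cleaves the Nppc precursor, was at 9.78 to 14.9 FPKM in MGCs and at 0.0882 or less in cumulus cells.

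Of 11 other phosphodiesterases tested in cumulus cells, 2 passed as higher and 3 as lower, or 45.5% against 22.3% of all genes (median 0.11, all genes −0.06). Pde6d, which carries prenylated proteins, fell by 1.34 on the log2(FPKM + 1) scale (limma adjusted p = 0.00238), from 52.0 to 70.6 FPKM in WT to 20.6 to 26.6 in the libraries labelled Sphk1/2gc-/-. Pde9a, a cGMP-specific hydrolase, fell by 0.93 (adjusted p = 0.0148), and Pde1a, a calcium-dependent one, rose by 0.61 (adjusted p = 0.0429). Pde3a, the cAMP hydrolase of the oocyte that cGMP inhibits, was at 0.643 FPKM or less in all 12 libraries.

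Of 6 cGMP effectors and substrates, 1 passed as higher and 1 as lower, or 33.3% against 22.3% of all genes (median 0.22). Vasp, an actin regulator phosphorylated by cGMP-dependent kinases, rose by 1.28 (adjusted p = 0.0101), and Hspb6, a small heat shock protein of muscle, fell by 1.14 (adjusted p = 0.00344). Prkg1, the other cGMP-dependent kinase, was at 0.101 FPKM or less in every library, so Prkg2 was the one detected above that level.

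In the purine list 1 of 21 genes passed as higher and 2 as lower, or 14.3% against 22.3% of all genes (median −0.22). Adssl1, which acts in the AMP branch and so competes with IMP dehydrogenase for IMP, rose by 2.09 (adjusted p = 0.000505), from 0.178 to 0.599 FPKM in WT to 3.95 to 5.31 in those labelled Sphk1/2gc-/-. Prps2, which makes the phosphoribosyl precursor, fell by 1.06 (adjusted p = 0.00602), and Guk1, which phosphorylates GMP, fell by 0.58 (adjusted p = 0.0216). Impdh1 and Impdh2 had 95% intervals of −0.14 to 0.56 and −0.55 to 0.55 in the same comparison.

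Of 16 genes that act on Nppc and Npr2 through LH, EGF-like factors, estradiol or mRNA decay, 3 passed, all lower, or 18.8% against 22.3% of all genes in either direction (median −0.07). Cyp19a1, the aromatase that makes estradiol, fell by 2.38 (adjusted p = 0.00236), from 45.3 to 83.7 FPKM in WT to 8.11 to 16.9. Lhcgr, the LH receptor, fell by 1.74 (adjusted p = 0.00933) and Fshr, whose promoter drives the Cre, fell by 0.72 (adjusted p = 0.0391). Nppc and Npr2 overlapped between the genotypes in these same libraries. Of 4 calcium store genes tested, 1 passed, or 25% against 22.3% of all genes, which was the inositol trisphosphate receptor Itpr1, up by 0.80 (adjusted p = 0.0342).

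Between the cell types, genes of these lists passed about as often as all genes. In WT, 62 of 80 list genes passed, and 63 of 80 did in Sphk1/2gc-/-, against 78.6% and 76.4% of all genes. In WT, 3812 of all 15339 genes passed as higher and 8240 as lower (53.7%). The list of 17 genes that act on Nppc and Npr2 had a median of −1.93 in WT, against −0.58 for all genes, with 12 lower and 2 higher. Areg and Ereg, the EGF-like factors that carry the LH signal from MGCs to cumulus cells, were at 1552 to 1705 and 854 to 977 FPKM in WT MGCs and at 43.5 to 93.5 and 13.0 to 32.9 FPKM in WT cumulus cells. The purine list had a median of 0.45 in WT, with 11 higher and 7 lower of 24, and Hprt, which salvages hypoxanthine and guanine, rose from 51.8 to 57.9 FPKM in WT MGCs to 575 to 802 in WT cumulus cells, opposite to Impdh1.

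Genes with profiles most like those of Nppc and Npr2 were taken from 11829 genes whose mean over the libraries reached 1 FPKM, by the root mean square difference of profiles centred on their own means over the 12 libraries. For Npr2 they were Eef1g, Trpc4ap, Nup210, Trp53bp1 and Vdac1, at 0.0927 to 0.0965 log2 units. For Nppc they were Mllt11, Gm17586, Greb1l, Aacs and Sec11c, at 0.283 to 0.312 log2 units. The 5 neighbours of Npr2 were all closer than the closest neighbour of Nppc.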

How the data were processed

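MGCs and cumulus cells of WT and Sphk1/2gc-/- mice were sequenced, 3 libraries per group. The authors deposited FPKM values, 1 table per cell type. The submitters' processing notes name HISAT2 and GRCm38, and the counting tool, filters and a common scale of the tables are not given in the sources used here. No column was left unused (0). Gene models came from GENCODE M21 (GRCm38), promoters from RefSeq (GRCm38.p6), and primers from the study's primer list.

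Levels are FPKM with SD over 3 libraries. Reads per gene were FPKM times exon length divided by its step (tolerance 0.02), with a floor of 3 reads. Tests used limma 3.58.1 (R 4.3.3) with its trend option, applied to log2(FPKM + 1) of the whole table, within each cell type for genotype and over all 12 libraries for cell type and interaction, without a replicate block. A gene entered if its mean reached 0.5 FPKM in either group, and p-values were adjusted by Benjamini-Hochberg. The procedure was tested on simulated data with a capped spread, no library that stood apart, and changes above 2-fold in genes of higher level. That test does not show how well smaller changes or low genes would be found in these libraries. The design allowed for read counts or FPKM, and as the files hold FPKM no count test was used. Correlations of libraries with the same number after removal of group means were 0.220, 0.158 and 0.224 in MGCs, above the limit of 0.1 set for pairing. They were −0.148, −0.0511 and 0.115 in cumulus cells. Libraries with different numbers also exceeded the limit. WT library 1 and Sphk1/2gc-/- library 2 stood at 0.155 in MGCs, and WT library 2 and Sphk1/2gc-/- library 1 at 0.179 in cumulus cells. These values therefore do not settle which libraries are paired, and the labels name no shared animal.

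All 9 genes are named in every comparison. From each list, up to 4 genes with the largest change among those that passed with a mean of at least 1 FPKM are named, and others with their levels as examples. Some results of the lists are not reported here. The 9 genes and the lists were chosen with earlier results of these data known. Alternatives were another pseudocount (0.1), no filter, quantile normalization, rescaling to 1000000 per library, no trend, array weights, a replicate block, each library left out, MGC libraries 1 and 2 only and, chosen after the data were seen, corrections for GC and length. Figures were drawn with matplotlib 3.10.9 in Python 3.11.15.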

Additional observations from a re-analysis of the deposited data

Results flagged for a closer look

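The genotype effect in cumulus cells minus that in MGCs, on the log2(FPKM + 1) scale, had a limma adjusted p (Benjamini-Hochberg over 15869 genes) of 0.05 or less for 1 of the 9 genes and 5 of 81 genes of the pathway lists, against 3.93% of all genes. The member was Npr1, at 1.39 (adjusted p = 0.0450), but at 0 to 7 reads in cumulus cells this value restates its MGC difference, and the adjusted p was 0.0568 with the replicate block and up to 0.127 with a library left out. Among list genes the difference was 1.42 for Pde7b, a cAMP hydrolase (adjusted p = 0.0328), 1.49 for Vasp (adjusted p = 0.0471), 2.04 for Adssl1 (adjusted p = 0.0148), −3.05 for Cyp19a1 (adjusted p = 0.0166) and 1.46 for Itpr1 (adjusted p = 0.0216). Cyp19a1 was at 132 to 366 FPKM in WT and 261 to 404 in Sphk1/2gc-/- MGCs, where the genotypes overlapped, and fell in the cumulus libraries labelled Sphk1/2gc-/-. Sphk1 was not lower under that label in cumulus cells (7, 43 and 51 reads against 7, 6 and 8 in WT). Sphk1/2gc-/- MGCs also kept Sphk1 reads (35, 45 and 9), and whole-gene values do not isolate the deleted exons. Each of these directions holds for the libraries as labelled.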

How the results depend on the processing

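In MGCs, between the genotypes, the number of the 9 genes that passed went from 0 to 4 with array weights. Of all 15279 genes tested, 2744 then passed as higher and 4720 as lower. Over libraries 1 and 2 only the number was 2, where 782 of all 15433 genes passed as higher and 1704 as lower. With each library left out it was 0 to 1. The number called went from 0 to 1 in the first 2 settings and was 0 to 1 with a library left out. All genes called were 259 higher and 339 lower with array weights, and 191 and 286 over libraries 1 and 2. In cumulus cells the number called was 0 to 1 with a library left out. It was 0 without WT library 2, where 456 of all 12246 genes were called as higher and 440 as lower. It was also 0 without library 1 of those labelled Sphk1/2gc-/-, where 651 and 654 of 12335 were. Between the cell types the number called went from 5 to 3 in both genotypes with the GC correction, with and without the replicate block. In WT, all genes called went from 2445 higher and 5290 lower of 15339 to 3377 and 3103 with the GC correction. In Sphk1/2gc-/- they went from 2174 and 4990 of 14983 to 3086 and 2761. In WT the number of the 9 genes called was 7 with a pseudocount of 0.1 and with rescaling. All genes called there were 3119 higher and 7369 lower of 15339, and 2394 and 8260 of 18827. The number was 4 with GC and length correction (all genes 3071 and 2983 of 15339) and over MGC libraries 1 and 2 (2439 and 5543 of 15485). In Sphk1/2gc-/- it was 4 with these last settings (2776 and 2682 of 14983, and 2295 and 4781 of 14787) and with array weights (2316 and 4587 of 14983). The interaction count went from 1 to 0 with a pseudocount of 0.1, no filter, quantile normalization, rescaling, GC correction, GC and length correction, the replicate block, and the block with GC correction, and was 0 to 1 with a library left out (0 without WT library 1 or 2 of MGCs, any WT cumulus library, or library 2 or 3 of those labelled Sphk1/2gc-/-). All genes called in the interaction were 327 higher and 199 lower of 15869 in the main test, and 257 and 142 with the replicate block. With the replicate block the Npr1 interaction was 1.39 (adjusted p = 0.0568), and no other call of the 9 genes changed under the block. Log2 differences that turned sign were as follows. Between genotypes in cumulus cells, Npr2 was 0.0612 with quantile normalization, 0.0473 with rescaling, 0.0317 with array weights and 0.0127 with GC correction (with or without the block); Gja1 was 0.035 with array weights, 0.0432 with GC correction (with or without the block) and 0.0179 with GC and length correction; Npr3 was −0.000349 and Impdh2 −0.23 with array weights. In MGCs Impdh2 was −0.0492 over libraries 1 and 2. Between cell types, quantile normalization gave 0.12 (WT) and 0.25 (Sphk1/2gc-/-) for Pde5a, −0.73 and −0.83 for Gja1 and 0.13 for Prkg2 in WT; rescaling gave −0.12 and −0.27 for Gja1. GC correction, with or without the block, gave 0.63 and 0.47 for Impdh2. GC and length correction gave 0.28 and 0.51 for Pde5a, and in WT 0.0702 for Impdh2 and 0.0782 for Prkg2. Prkg2 in Sphk1/2gc-/- was −0.13 with array weights and −0.0948 over MGC libraries 1 and 2. With each library left out, ranges that crossed 0 were, between genotypes in MGCs, −0.0229 to 0.56 for Prkg2, −0.073 to 0.46 for Impdh1, −0.037 to 0.25 for Impdh2 and −0.0438 to 0.21 for Npr2; in cumulus cells, −0.11 to 0.56 for Nppc, −0.0794 to 0.07 for Npr2, −0.14 to 0.14 for Npr3, −0.16 to 0.0171 for Gja1 and −0.22 to 0.14 for Impdh2; between cell types, −0.26 to 0.0804 for Impdh2 in WT, and −0.0447 to 0.103 for Gja1 and −0.0948 to 0.49 for Prkg2 in Sphk1/2gc-/-. Of 741 values of single genes under alternatives, 652 kept direction and side of the threshold. Nppc between cell types in WT lost its call without WT MGC library 3 (−0.92, adjusted p = 0.0516) or WT cumulus library 2 (−0.77, adjusted p = 0.0552), and in Sphk1/2gc-/- without MGC library 3 (−0.90) or cumulus library 1 (−0.84). Prkg2 between cell types in WT (−0.59) passed once MGC Sphk1/2gc-/- library 1 (adjusted p = 0.0362) or 3 (adjusted p = 0.00169) was left out. The causes were not tested. Low read numbers limit Npr1 in cumulus cells (0 to 7 reads), Impdh1 there (21 to 58 reads) and Prkg2 in WT cumulus cells (21 to 51 reads).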
